A study of Mus musculus with 10 samples.

Results

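Lymphatic valve endothelial cells were looked for in 2 droplet libraries of ear skin endothelial cells, 1 from pups given mouse IgG and 1 from pups given a blocking antibody against Ang2 (Ang2 Ab). A droplet barcode, which stands for 1 captured cell, was called a valve barcode when it had at least 500 detected genes, at most 10% mitochondrial UMIs, at least 2 UMIs of *Prox1*, none of *Pdgfrb*, and at least 5 summed UMIs of *Cldn11*, *Gdf10*, *Sbspon*, and *Fibin*. A UMI marks 1 captured RNA molecule. The rule found 296 valve barcodes with IgG and 207 with Ang2 Ab, 503 in all, among 2000 *Prox1* barcodes without *Pdgfrb*, 6401 barcodes within the gene and mitochondrial limits, and 9016 barcodes in the matrices. The 1497 other *Prox1* barcodes, 980 with IgG and 517 with Ang2 Ab, served for comparison and are called other LECs (lymphatic endothelial cells) here.

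The study deleted *Tie1*, or *Tie1* and Tie2, in the LECs of newborn mice, or blocked Ang2, a ligand of Tie2, in pups. For the droplet libraries, wild-type C57Bl/6j pups, labelled male, received 20 mg/kg of Ang2 antibody 18E5 or of mouse IgG1 every 3 days from P16 to P21, and ear skin cells were sorted on CD31. Both carry the age label P1-P21, and the number of pups behind each was not stated in the sources used here. The title of the Ang2 Ab library also holds the word control, whereas its treatment label names the Ang2 antibody, and the treatment label was followed. The IgG library held 4685 barcodes with 42337184 UMIs (median 6957 per barcode) and the Ang2 Ab library 4331 barcodes with 31720670 UMIs (median 4920). Replicate spread came from 4 plates of single control LECs sequenced by Smart-seq, 2 of Tie1fl/fl and 2 of Tie1fl/fl,Tie2fl/fl mice, all without Cre and given 4-hydroxytamoxifen from P1 to P5 and sorted on podoplanin and CD31. Their age label repeats the tamoxifen window, whereas the study states a later postnatal day for its single-cell LECs. The label and the study thus differ on the age of the plate cells.

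Valves of collecting lymphatic vessels keep lymph from flowing back. Each has a pair of leaflets, sheets of matrix covered by endothelium on both sides, and their cells form where disturbed flow acts on LECs that express *Prox1*, *Foxc2*, and *Gata2*. *Cldn11* encodes a tight junction claudin, *Gdf10* a secreted ligand of the TGF-beta family, *Sbspon* a secreted matrix protein, and *Fibin* a secreted protein. *Adm* encodes adrenomedullin, a peptide that acts on endothelial cells through the receptor *Calcrl* with *Ramp2*.

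All values below on the droplet libraries come from 1 library a condition. A difference between the antibodies therefore has no replicate check and no test, and every interval given covers counting error only. Because the rule used values of the same cells, valve barcodes are set against other LECs as a description.

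Of the sequences that bear on the rule, the 250 bases before the RefSeq start sites (GRCm38.p6) of *Cldn11*, *Gdf10*, *Fibin*, and *Adm*, and of the transcription factor gene *Foxc1*, are shown so that the elements searched for can be read in place. Capitals mark a match to the NFAT element GGAAAA. *Cldn11* lies on the plus strand (chr3:31149670-31149919), *Gdf10* on the plus strand (chr14:33923337-33923586), *Fibin* on the minus strand (chr2:110362994-110363243), *Adm* on the plus strand (chr7:110627407-110627656), and *Foxc1* on the plus strand (chr13:31806396-31806645).
Cldn11: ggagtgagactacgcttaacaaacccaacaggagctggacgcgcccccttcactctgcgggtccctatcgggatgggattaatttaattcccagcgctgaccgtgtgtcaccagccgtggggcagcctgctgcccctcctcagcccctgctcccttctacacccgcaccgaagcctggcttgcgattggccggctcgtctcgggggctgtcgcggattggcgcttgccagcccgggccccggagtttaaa
Gdf10: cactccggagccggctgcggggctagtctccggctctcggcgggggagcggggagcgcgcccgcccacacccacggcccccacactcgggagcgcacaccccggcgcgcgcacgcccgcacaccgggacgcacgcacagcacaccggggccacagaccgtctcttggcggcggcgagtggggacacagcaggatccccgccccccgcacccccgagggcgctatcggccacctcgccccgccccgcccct
Fibin: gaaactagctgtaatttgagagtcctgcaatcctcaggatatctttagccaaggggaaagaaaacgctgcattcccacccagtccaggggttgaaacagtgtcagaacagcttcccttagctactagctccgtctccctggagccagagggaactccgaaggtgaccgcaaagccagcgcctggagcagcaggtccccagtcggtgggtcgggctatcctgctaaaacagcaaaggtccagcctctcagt
Adm: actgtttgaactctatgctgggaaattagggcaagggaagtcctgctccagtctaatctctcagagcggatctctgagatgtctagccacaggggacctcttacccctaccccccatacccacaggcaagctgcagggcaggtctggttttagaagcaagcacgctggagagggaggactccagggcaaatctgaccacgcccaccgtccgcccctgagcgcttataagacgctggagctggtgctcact
Foxc1: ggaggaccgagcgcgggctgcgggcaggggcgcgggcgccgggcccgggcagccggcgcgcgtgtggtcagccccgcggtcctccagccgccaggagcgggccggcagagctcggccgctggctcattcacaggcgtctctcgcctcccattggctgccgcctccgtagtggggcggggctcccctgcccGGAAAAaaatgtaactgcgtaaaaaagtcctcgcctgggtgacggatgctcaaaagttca

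The search covered windows from 250 bases before to 50 after the start, on both strands, for the GATA factor element AGATAA, the forkhead factor element TAAACA, and the NFAT factor element GGAAAA. These elements occur in 11.2%, 13.4%, and 23.4% of all 32851 windows of the table. Of the 15 genes sought, the rule genes, *Adm*, and 10 valve transcription factors, 11 had a window that was searched, with 13 windows in all. No window of *Sbspon*, *Foxc2*, *Nfatc1*, or *Foxp2* was searched. Those of *Cldn11*, *Gdf10*, *Fibin*, and *Adm* held no match. *Foxc1* held the NFAT element at -60 and, on the other strand, at 5, *Foxo1* held it at -159, and *Klf4* held the forkhead element on the other strand at -167. The windows of *Cldn11* and *Gdf10* had a GC content of 66.3% and 77.3%, against a median of 52.7% over all windows, and a missing match says only that these letters are not there.

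A minority of *Prox1* barcodes met the rule, and the rule genes varied widely among them. Valve barcodes were 23.2% of *Prox1* barcodes with IgG (296 of 1276) and 28.6% with Ang2 Ab (207 of 724). Thinned to 5000 UMIs a barcode, the shares were 19.1% (199 of 1040) and 25.0% (145 of 580). The summed UMIs of the 4 genes had a median of 22 with IgG (quartiles 9 and 46, highest 157) and of 21 with Ang2 Ab (quartiles 11 and 37, highest 128). Among other LECs, 65.6% and 70.0% had no UMI of any of the 4 genes. All 4 genes were seen together in 136 valve barcodes with IgG (45.9%) and 102 with Ang2 Ab (49.3%), so about as many members lacked at least 1 of them. A further 40 and 23 barcodes had *Prox1* and *Pdgfrb* UMIs, of which 7 and 5 reached the minimum of 5 and were not counted.

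**Figure D1:**
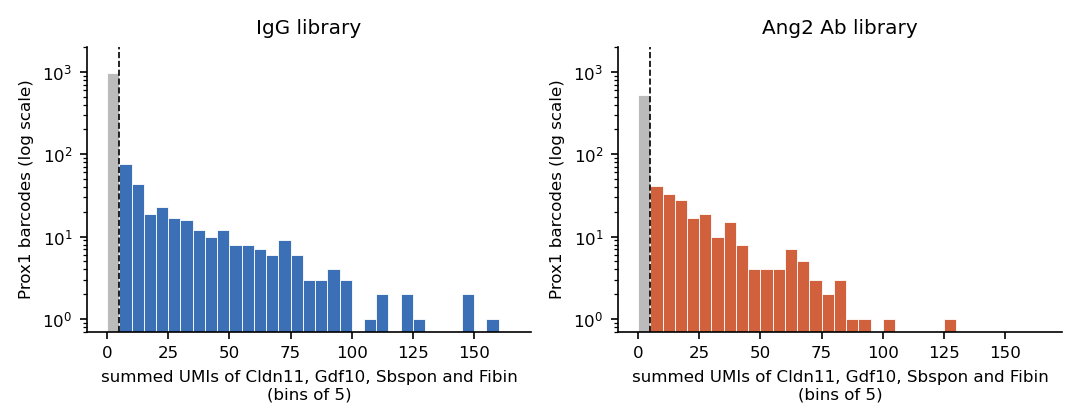
Histograms of the summed UMIs of *Cldn11*, *Gdf10*, *Sbspon*, and *Fibin* in the *Prox1* barcodes of each library, in bins of 5, with the number of barcodes on a log axis. The dashed line is the minimum of 5, grey barcodes are other LECs, and the valve barcodes run up to 157 UMIs with IgG and 128 with Ang2 Ab without a gap at the minimum.

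The minimum cuts a slope. With IgG, 50 barcodes had 3 and 37 had 4 summed UMIs, against 19 with 5 and 20 with 6. With Ang2 Ab these numbers were 25, 16, 12, and 7. At 4 and 5 UMIs, *Adm* was at 42.4 and 202 CPM (UMIs per 1000000 UMIs of the class) with IgG and at 270 and 620 CPM with Ang2 Ab. Members with 5 to 9 UMIs were 77 of 296 with IgG and 41 of 207 with Ang2 Ab. The 219 IgG and 166 Ang2 Ab members with at least 10 UMIs made up most of the valve barcodes.

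Depth was alike in both kinds of LEC. The median was 11951.5 UMIs in valve barcodes and 12610 in other LECs with IgG, and 10564 and 12078 with Ang2 Ab. Mitochondrial UMIs took a median of 5.02% and 5.12% in valve barcodes and 4.41% and 4.72% in other LECs. The libraries shared 5 barcode sequences, none of them a valve barcode. No doublet caller was run, and the effect of leaving out the deepest 5% of barcodes is given with the other alternatives.

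Although the libraries are labelled male, cells with *Xist* and cells with Y-linked RNA were found in both. With IgG, 153 valve barcodes had *Xist* UMIs and none of *Ddx3y*, *Eif2s3y*, *Kdm5d*, or *Uty*, 102 had Y-linked UMIs and no *Xist*, and 26 (8.78%) had both. With Ang2 Ab, the counts were 90, 99, and 8 (3.86%). The Xist-only share was therefore lower with Ang2 Ab (43.5% against 51.7%).

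The 4 rule genes were low in other LECs and in blood endothelial barcodes. *Cldn11* was at 903 CPM in valve barcodes and 20.2 CPM in other LECs with IgG, and at 816 and 14.6 CPM with Ang2 Ab. *Gdf10* was at 530 and 15.2 CPM with IgG and at 419 and 9.48 CPM with Ang2 Ab. These gaps are set by the rule. In blood endothelial barcodes (at least 2 *Pecam1* UMIs, none of *Prox1*, *Pdpn*, or *Mmrn1*, with a median of 7948.5 UMIs with IgG and 6662.5 with Ang2 Ab), *Cldn11* UMIs were found in 2.22% and 1.05%, in other LECs in 19.4% and 11.99%, and in valve barcodes in 91.6% and 86.0%. Other LECs with *Gdf10* UMIs were 12.04% and 7.74%, and those with *Fibin* UMIs 5.41% and 12.2%. *Sbspon* was at 371 and 4.76 CPM with IgG and at 378 and 2.55 CPM with Ang2 Ab, and *Fibin* at 462 and 5.06 CPM and at 592 and 15.6 CPM.

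When each rule gene was left out and the barcodes were chosen by the other 3, the left-out gene remained far higher in valve barcodes. *Cldn11* was then 21.3-fold higher with IgG and 18.3-fold with Ang2 Ab, and *Gdf10* 13.1-fold and 15.8-fold. *Sbspon* was 73.3-fold and 141-fold higher, with 374 against 5.11 CPM and 378 against 2.69 CPM. For *Fibin* the values were 43.1-fold and 9.26-fold, and the lower one came with more *Fibin* in other LECs of the Ang2 Ab library (60.9 CPM against 11.0 CPM with IgG).

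Markers outside the rule pointed the same way. *Adm* was at 790 CPM in valve barcodes and 31.4 CPM in other LECs with IgG (25.1-fold, 95% interval 22.7 to 27.9) and at 1260 and 117 CPM with Ang2 Ab (10.7-fold, 9.94 to 11.6). *Slc41a1*, a magnesium transporter gene, was at 1168 and 106 CPM (11.0-fold) with IgG and at 1612 and 149 CPM (10.8-fold) with Ang2 Ab. *Neo1*, which encodes the netrin receptor neogenin, was at 318 and 36.8 CPM (8.65-fold) and at 440 and 122 CPM (3.61-fold). *Gjd3*, a connexin gene, was sparse, with 19.3 and 0.51 CPM (37.6-fold) and 17.2 and 0.99 CPM (17.4-fold). All 4 were thus at least 2-fold higher in both libraries, and the label was not contradicted by its markers. Across all genes, 298 of the 10772 with enough UMIs (at least 100 in all, and 20 in valve barcodes or other LECs of each library) were 2-fold or more higher in valve barcodes in both libraries (2.77%), and 366 were 2-fold or more lower (3.40%). A gene could pass that minimum through the class in which it was higher. The median log2 ratio of these genes was 0.00 with IgG and -0.02 with Ang2 Ab.

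**Figure D2:**
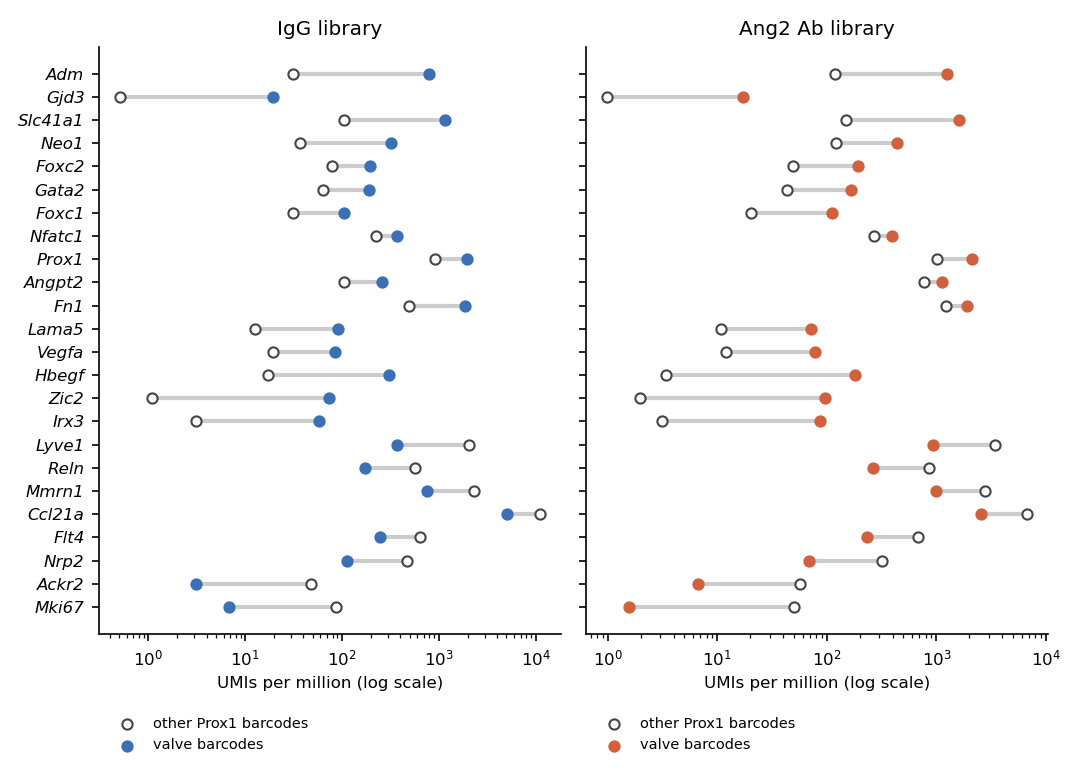
Levels of named genes in valve barcodes (filled) and other LECs (open) of the IgG library and of the Ang2 Ab library, in CPM on a log axis, from summed UMIs of 1 library each. Genes from *Adm* to *Irx3* lie higher and genes from *Lyve1* to *Mki67* lower in valve barcodes in both libraries.

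Of 10 transcription factor genes named for valves, 3 were 2-fold or more higher in valve barcodes in both libraries (*Foxc1*, *Foxc2*, and *Gata2*) and none was lower (median log2 ratio 0.70 with IgG and 0.86 with Ang2 Ab). *Foxc2*, which is required for valve formation, was at 197 and 78.1 CPM with IgG (2.52-fold, 2.30 to 2.77) and at 192 and 49.4 CPM with Ang2 Ab (3.90-fold, 3.39 to 4.48). *Gata2* was at 191 and 63.6 CPM (3-fold, 2.72 to 3.31) and at 165 and 43.0 CPM (3.83-fold). The levels of both factors in valve barcodes were close in the 2 libraries, and their ratio was larger with Ang2 Ab through lower levels in other LECs. *Foxc1* was 3.38-fold and 5.43-fold higher. The flow-responsive factor gene *Klf2* was at 2943 and 1781 CPM with IgG (1.65-fold) and at 2173 and 1070 CPM with Ang2 Ab (2.03-fold). *Nfatc1* was 1.65-fold and 1.46-fold higher, *Klf4* 1.59-fold and 1.71-fold, and *Foxo1* 1.44-fold and 1.39-fold, all under 2-fold. *Prox1*, which the rule asks for, was 2.13-fold and 2.08-fold higher.

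The genes with the highest ratios in both libraries were mostly on in few members. Of the 15 highest, *Zic2*, a zinc finger factor gene, was at 73.0 and 1.10 CPM with IgG (66.4-fold) and at 97.0 and 1.98 CPM with Ang2 Ab (48.96-fold), and it had UMIs in 140 of 296 and 115 of 207 valve barcodes. *Coch*, which encodes the matrix protein cochlin, was 86.3-fold and 51.6-fold higher, but its UMIs came from 21 and 28 valve barcodes. *Hbegf*, which encodes a ligand of the EGF receptor, was at 305 and 17.1 CPM (17.8-fold) and at 179 and 3.40 CPM (52.7-fold), in 138 and 87 valve barcodes. Thus *Zic2* and *Hbegf* marked a larger share of members than *Coch* did. *Cd79a*, known as a B cell receptor gene, was 66.6-fold and 45.3-fold higher and was found in 72 and 83 valve barcodes. The others among the 15 were *Cilp2*, *Pou2f2*, *Ppargc1a*, *Rragd*, *Mtcl1*, *Kcnj2*, *Slc38a11*, *Smoc1*, *Irx3*, *Irx5*, and *Gjd3*, with ratios from 17.4 to 197.

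Immune cell markers did not accompany *Cd79a*. Of 8 immune genes, 3 had enough UMIs and *Cd79a* was the one past 2-fold. Their summed level was 51.1 CPM in valve barcodes and 13.996 CPM in other LECs with IgG and 111 and 13.6 CPM with Ang2 Ab, of which *Cd79a* made up 39.03 and 102 CPM in valve barcodes, while 1 and 4 of the 8 were at 0 there. *Cd68* was at 6.02 and 6.23 CPM with IgG and at 3.52 and 3.82 CPM with Ang2 Ab.

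Genes of lymphatic capillaries were lower in valve barcodes. Of 7 capillary markers, 6 were at or below 0.5-fold in both libraries (median log2 ratio -1.67 and -1.72), among them *Lyve1*, the hyaluronan receptor of capillary LECs, which was at 374 and 2052 CPM with IgG (0.18-fold) and at 924 and 3416 CPM with Ang2 Ab (0.27-fold). *Reln*, which encodes secreted reelin, was at 173 and 562 CPM (0.31-fold) and at 261 and 859 CPM (0.30-fold). *Lyve1* UMIs were found in 108 of 296 and 72 of 207 valve barcodes, and the tenth of valve barcodes with most *Lyve1* held 79.9% and 86.1% of them. The low *Lyve1* level was therefore carried by a minority of members. *Pcsk6* was the seventh marker, at 0.61-fold and 0.55-fold.

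Of 10 pan-lymphatic genes, 5 were 2-fold or more lower in both libraries (*Flt4*, *Ccl21a*, *Mmrn1*, *Lyve1*, and *Stab1*) and none was higher (median log2 ratio -1.13 and -1.02). *Flt4*, the gene of VEGFR3, was at 248 and 639 CPM with IgG (0.39-fold) and at 230 and 683 CPM with Ang2 Ab (0.34-fold). *Mmrn1* was 0.32-fold and 0.35-fold, and *Fxyd6* lay on the other side at 1.31-fold and 1.77-fold. *Ccl21a*, a chemokine gene with near-identical copies whose counts are uncertain, was 0.46-fold and 0.38-fold. Of 7 collector markers none was past 2-fold either way (median log2 ratio -0.36 and -0.08), with *Tsc22d1* at 0.998-fold and 0.95-fold. All 6 proliferation markers were 2-fold or more lower in both libraries (median log2 ratio -1.67 and -4.22), with *Top2a* at 26.5 and 90.3 CPM with IgG and at 5.08 and 47.1 CPM with Ang2 Ab.

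The 10 lowest genes were also mostly cell cycle genes (*Aspm*, *Mki67*, *Cenpe*, *Hist1h3c*, *Hist1h2ab*, *Kif11*, *Ccnb2*, and *Depdc1a*), together with *Ackr2* and *Etv4*. *Ackr2*, a chemokine scavenger gene, was at 3.13 and 48.2 CPM with IgG (0.065-fold) and at 6.65 and 57.4 CPM with Ang2 Ab (0.116-fold). *Mki67* was at 6.75 and 86.0 CPM and at 1.56 and 50.1 CPM. Histone genes of these families share near-identical copies and are uncertain.

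Within matrix, junction, and signaling lists few members passed 2-fold. Of 13 matrix and integrin genes with enough UMIs, *Lama5*, a laminin chain gene, was 7.27-fold and 6.53-fold higher and *Nid2*, a nidogen gene, 0.28-fold and 0.23-fold (median log2 ratio of the list -0.30 and -0.27). *Fn1*, the fibronectin gene, was at 1845 and 495 CPM with IgG (3.73-fold) but at 1904 and 1226 CPM with Ang2 Ab (1.55-fold). The *Fn1* level of valve barcodes was close in both libraries, while that of other LECs was 2.48-fold higher with Ang2 Ab. *Itga9*, the integrin that binds a fibronectin form in valve leaflets, was 1.34-fold and 1.67-fold higher, and *Svep1* had no UMI in valve barcodes of either library. Of 12 junction and polarity genes, *Esam* (2.69-fold and 2.70-fold) and *Vangl2*, a planar polarity gene (2.34-fold and 2.25-fold), were higher (median log2 ratio 0.10 and 0.04), whereas *Cdh5* stood at 0.97-fold and 0.82-fold. *Celsr1*, also a planar polarity gene, passed 2-fold with IgG (2.28) and not with Ang2 Ab (1.56).

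Connexin genes differed among themselves. *Gjd3* was more than 2-fold higher in both libraries. *Gja4* was at 431 and 222 CPM (1.94-fold) and at 289 and 111 CPM (2.61-fold). *Gja1* was 0.45-fold and 0.52-fold. In these LECs, *Gjd3* and *Gja4* thus lay on one side and *Gja1* on the other in both libraries. Of 4 adrenomedullin system genes, *Adm* was past 2-fold (median log2 ratio -0.01 and 0.39), and its receptor genes were not, with *Ramp2* at 1.20-fold and 1.24-fold and *Calcrl* at 0.65-fold and 0.80-fold.

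Among 18 guidance genes, *Ntn4*, which encodes a netrin, was at 125 and 25.4 CPM with IgG (4.92-fold) and at 195 and 86.4 CPM with Ang2 Ab (2.25-fold), *Neo1* was also higher, and *Nrp2* and *Robo4* were lower (median log2 ratio -0.36 and -0.29). *Unc5b*, another netrin receptor gene, was 2.57-fold and 1.73-fold higher. Of 6 VEGF ligand and receptor genes, *Vegfa* was 4.35-fold and 6.47-fold higher, *Flt4* was lower, and *Nrp2*, the VEGFR3 coreceptor gene, was at 113 and 475 CPM (0.24-fold) and at 69.2 and 319 CPM (0.22-fold), with a list median of -0.25 and -0.89. *Kdr*, the gene of VEGFR2, was at 0.89-fold and 1.00-fold. Both genes of the VEGFR3 receptor pair were thus lower in valve barcodes while *Kdr* differed little.

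Of the 4 angiopoietin and Tie genes with enough UMIs, none passed 2-fold in both libraries (median log2 ratio 0.43 and 0.41). *Tie1* was at 533 and 379 CPM with IgG (1.41-fold, 1.34 to 1.48) and at 552 and 395 CPM with Ang2 Ab (1.40-fold, 1.31 to 1.49), and *Tek*, the gene of Tie2, at 103 and 121 CPM (0.85-fold) and at 77.4 and 85.6 CPM (0.90-fold). Notch genes had 0 of 9 higher and 2 lower, *Hey1* (0.38-fold and 0.30-fold) and *Nrarp* (0.50-fold and 0.25-fold), with a median log2 ratio of -0.30 and -0.54. The 14 BMP and TGF-beta genes had none past 2-fold in both libraries (median -0.53 and -0.22). Of 14 PI3K, Akt, and FoxO genes, *Sesn3*, a stress response gene, was higher (2.095-fold and 2.69-fold; median of the list 0.12 and 0.17). Among the 12 genes that the study names as results, *Gata2*, *Foxc2*, *Cldn11*, and *Prox1* were higher and *Flt4*, *Nrp2*, and *Lyve1* lower (median log2 ratio 0.46 and 0.52), of which *Cldn11* and *Prox1* belong to the rule.

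In the droplets, summed markers of 3 other cell types were no higher in valve barcodes. Blood endothelial markers had 0 of 9 higher and 2 lower (*Emcn* and *Cd300lg*), with a summed level of 748 CPM in valve barcodes and 868 CPM in other LECs with IgG and of 603 and 947 CPM with Ang2 Ab. *Ptprb*, a phosphatase gene that LECs express too, was the most abundant of them in valve barcodes, at 321 and 319 CPM. Mural markers summed to 43.4 and 51.3 CPM with IgG and 36.4 and 101 CPM with Ang2 Ab, with 0 of 4 higher and *Tagln* lower. Fibroblast markers summed to 90.1 and 137 CPM and to 62.6 and 159 CPM, with 0 of 4 higher and *Col3a1* lower. On the control plates, valve wells were chosen by a like rule. There the fibroblast genes *Col1a2* (mean log2 ratio 1.04 ± 0.15, SD, n = 4 plates) and *Dcn* (1.05 ± 0.53) were higher in valve wells on all 4. *Col1a1* was higher on 3 plates and lower on 1 (0.68 ± 1.50), and *Col3a1* was lower on 3 and higher on 1 (0.07 ± 1.64). The part of fibroblast RNA in the plate ratios was not tested. The sums were thus at or below those of other LECs for each of these lists. Interferon markers had 0 of 6 higher and *Ifit3* lower (sums of 117 and 154 CPM with IgG, 111 and 94.5 CPM with Ang2 Ab), and erythroid markers 0 of 4 either way (170 and 135 CPM, 103 and 93.9 CPM). Schwann cell markers had too few UMIs (7.71 and 8.79 CPM, 5.47 and 9.05 CPM).

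The cartilage, immediate early, and keratinocyte lists had at most 1 member past 2-fold in both libraries. Of 3 cartilage markers with enough UMIs, *Comp*, which encodes a matrix protein, was at 87.2 and 33.5 CPM with IgG (2.60-fold) and at 52.0 and 14.7 CPM with Ang2 Ab (3.53-fold), while *Col2a1* was at 2.89 and 2.71 CPM and at 1.56 and 11.7 CPM. Immediate early genes, which also respond to dissociation, had 1 of 13 higher, *Nr4a1* (2.27-fold and 2.09-fold), with sums of 15564 and 13778 CPM with IgG and 12003 and 9085 CPM with Ang2 Ab. *Fos* was at 0.94-fold and 1.18-fold. Of 3 keratinocyte markers none passed 2-fold in both libraries, but their sum turned over, from 10.8 and 82.4 CPM with IgG to 153 and 8.49 CPM with Ang2 Ab, where a single valve barcode held 99.5% of the *Krt15* UMIs.

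Valve barcodes also differed among themselves along the rule genes' sum. In the 4 ranges from 5 to 9, 10 to 19, 20 to 39, and 40 or more UMIs, *Foxc2* was at 102, 125, 219, and 295 CPM with IgG and at 83.7, 135, 292, and 239 CPM with Ang2 Ab. *Lyve1* was at 834, 604, 130, and 49.9 CPM with IgG and at 2452, 862, 376, and 342 CPM with Ang2 Ab. *Ccl21a* went from 10014 CPM in the lowest range to 1488 CPM in the highest with IgG and from 6234 to 391 CPM with Ang2 Ab. *Foxc2* was thus higher and *Lyve1* and *Ccl21a* lower in members with more UMIs of the rule genes, in both libraries. Median depth showed no trend over these ranges, at 12782, 10815, 11245.5, and 13052 UMIs with IgG and 12212, 10644, 8801, and 12268 UMIs with Ang2 Ab. *Itga9* varied little, between 182 and 263 CPM with IgG and between 188 and 278 CPM with Ang2 Ab.

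The same contrast was then read on the 4 control plates, whose cells the droplet rule did not use. Wells with at least 1000 detected genes, at least 2 *Prox1* reads, no *Pdgfrb* read, and at least 400 CPM of the rule genes (here reads per 1000000 reads of a well, with levels averaged over wells) were taken as valve wells. They were 123 of 306 *Prox1* wells (40.2%) and 74 of 340 (21.8%) on the Tie1fl/fl plates and 77 of 269 (28.6%) and 112 of 348 (32.2%) on the Tie1fl/fl,Tie2fl/fl plates. On the first Tie1fl/fl plate, valve wells had fewer reads than other wells (median 85843 against 231492), and on the others the medians lay close. Because these wells were also chosen on measured values, the plate ratios for genes outside the rule are given as values and directions.

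Of the genes that stood out in the droplets and could be measured on the plates, most lay the same way on all 4. Of the 233 genes higher in the droplets and measured on the plates (at least 10 CPM on average in the higher class), 158 were higher in valve wells on all 4 plates (67.8%), against 8.74% of all 9343 genes, and 1 was lower on all 4. Of the 244 lower genes, 143 were lower on all 4 plates (58.6%), against 14.1% of all genes, and 2 were higher on all 4. A gene could reach 10 CPM through the class in which it was higher. Plate ratios are on the log2(CPM + 1) scale, which understates the change of low genes.

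The genes named next were higher in valve wells on every plate, with an SD over plates below the mean difference. *Gata2* was higher by 0.84, 1.00, 0.79, and 1.04 (mean 0.92 ± 0.12, SD, n = 4 plates) and *Foxc2* by 0.59, 0.82, 0.73, and 0.86 (mean 0.75 ± 0.12). *Slc41a1* was higher by 2.30, 3.63, 3.50, and 2.72 (3.03 ± 0.64), and *Adm* by 0.94, 3.08, 2.37, and 2.25 (2.16 ± 0.89). The first plate, with the shallower valve wells, gave the lowest value for *Slc41a1*, *Adm*, and *Foxc2*. That plate also differed in sex-linked RNA. *Xist* was at 383 CPM in its valve wells and at 0.10, 4.59, and 0.29 CPM in those of the others. *Ddx3y* was at 0.22 CPM there and at 48.6, 68.9, and 47.7 CPM on the others. The part of depth or sex in these values was not tested. *Neo1* (2.91 ± 0.95), *Gjd3* (2.90 ± 0.58), *Hbegf* (3.99 ± 0.87), *Lama5* (2.31 ± 0.35), *Esam* (1.36 ± 0.41), *Fn1* (0.96 ± 0.12), and *Klf2* (1.00 ± 0.33) were also higher on all 4. *Tie1* was higher by 0.23 to 0.35 (0.30 ± 0.05) and *Angpt2* by 0.20 to 1.26 (0.97 ± 0.51).

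Several of the lower genes were also lower on each plate. *Lyve1* was lower in valve wells on all 4 plates, at -0.69, -1.08, -1.26, and -1.25 (mean -1.07 ± 0.27), and *Flt4* at -0.33, -1.02, -0.76, and -0.68 (-0.70 ± 0.29). *Reln* (-0.98 ± 0.24), *Mmrn1* (-0.68 ± 0.22), *Nrp2* (-0.97 ± 0.50), *Robo4* (-1.11 ± 0.59), and *Nid2* (-0.88 ± 0.33) were lower too. Of the 10 genes lowest in the droplets, 3 reached the plate minimum of 10 CPM, of which *Mki67* and *Ackr2* were lower on all 4 plates and *Ccnb2* on 3. The other 7 were too low on the plates to be read.

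Some droplet differences were not shared by the plates. *Ccl21a* was at 0.53, -0.16, -0.11, and 0.11 on the 4 plates (0.09 ± 0.32). *Foxc1* was at 1.29, 1.08, -0.84, and 0.26, and *Nfatc1* was higher on 3 of 4. *Vangl2* (0.15 ± 0.61) was higher on 2 plates and lower on 2, and *Ntn4* was below the plate minimum. *Comp*, higher in valve barcodes, was lower on 3 plates (-0.21 ± 0.37), and *Nrarp*, lower in valve barcodes, was higher on 3 (-0.08 ± 1.19). *Hey1* and *Col3a1* were lower on 3 plates and higher on 1, and *F2rl1*, lower in valve barcodes, was higher on all 4 (0.28 ± 0.30). Of the 15 genes highest in the droplets, 10 reached 10 CPM, and *Coch*, *Kcnj2*, *Pou2f2*, *Rragd*, and *Zic2* were below it. The 10 were higher on all 4 plates. Most of them had less than 10 CPM in other wells of every plate, so the minimum itself favoured this direction. *Cd79a* was higher on all 4 (3.22 ± 0.80), with 12.8, 30.2, 12.1, and 32.1 CPM in valve wells and 1.66, 0.61, 0.32, and 3.38 CPM in other wells.

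**Figure D3:**
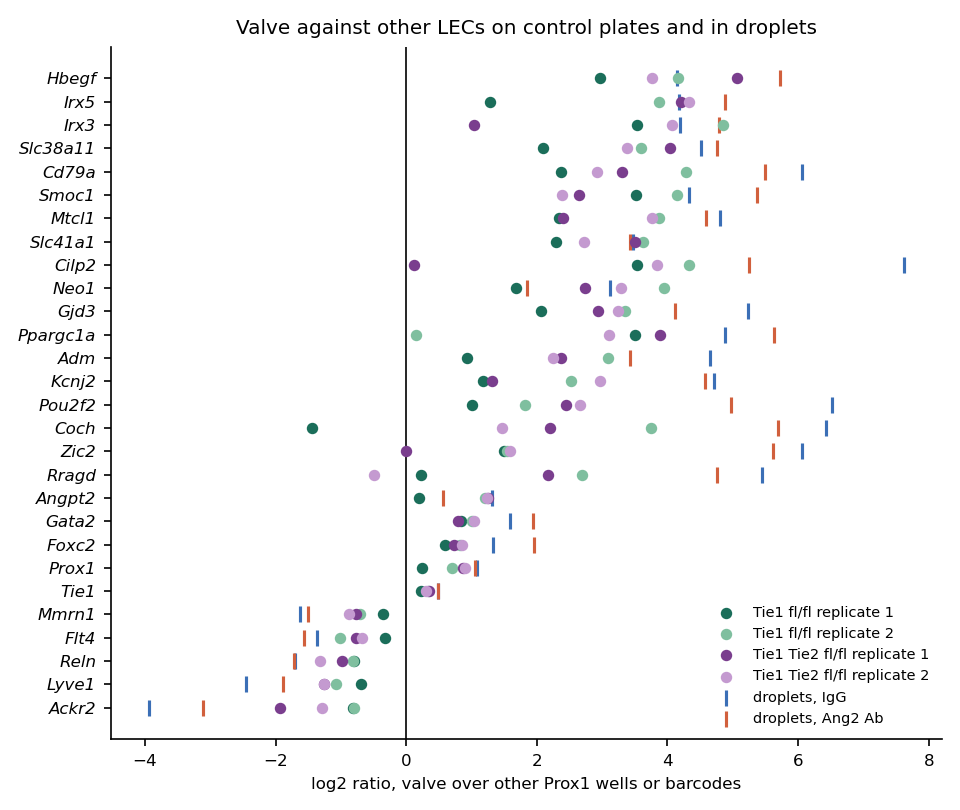
Log2 ratio of valve over other *Prox1* wells on each of the 4 control plates (points, log2 of CPM + 1) and of valve barcodes over other LECs in the 2 droplet libraries (vertical bars, log2 of summed CPM) for named genes. *Hbegf*, *Slc41a1*, *Gata2*, and *Foxc2* lie right of 0 and *Lyve1*, *Reln*, and *Flt4* left of 0 on all 4 plates and in both libraries, whereas the plate points of *Coch* and *Rragd*, below 10 CPM on the plates, lie on both sides of 0.

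The comparison of Ang2 Ab with IgG asks which transcripts of valve LECs differ after Ang2 was blocked from P16 to P21. Of 7605 genes with at least 100 UMIs in valve barcodes, 38 were 2-fold or more higher with Ang2 Ab (0.500%) and 49 were 2-fold or more lower (0.644%). In other LECs the same genes gave 57 higher (0.750%) and 70 lower (0.920%), and 15 higher and 10 lower genes were in common. Valve and other LECs were taken from the same libraries, so their ratios share any difference between those libraries.

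*Angpt2*, the gene of Ang2 itself, was far higher with Ang2 Ab. It was at 261 CPM in the valve barcodes of the IgG library and at 1133 CPM in those of the Ang2 Ab library, a 4.34-fold difference (4.05 to 4.66). In other LECs it went from 105 to 769 CPM (7.36-fold, 6.94 to 7.80), so the valve ratio was 0.59 of the ratio in other LECs. *Angpt2* UMIs were found in 209 of 296 valve barcodes with IgG and in 197 of 207 with Ang2 Ab. The difference did not rest on 1 barcode, since without the barcode of most *Angpt2* UMIs in each library it was 4.39-fold. It was 4.28-fold in barcodes with *Xist* and 4.30-fold in those with Y-linked UMIs. In members with 5 to 9 rule UMIs, *Angpt2* was at 201 CPM with IgG and 1391 CPM with Ang2 Ab. In members with 40 or more it was at 306 and 787 CPM, so the difference was smaller there.

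Over all valve barcodes, *Adm*, *Slc41a1*, *Neo1*, and *Fibin* were higher with Ang2 Ab, and *Cldn11*, *Gdf10*, and *Gata2* were lower, all by less than 2-fold. The intervals of *Sbspon* and *Foxc2* held 1. Between the antibodies, *Cldn11* was at 0.90-fold (0.86 to 0.95), *Gdf10* at 0.79-fold (0.73 to 0.85), *Sbspon* at 1.02-fold (0.94 to 1.11), and *Fibin* at 1.28-fold (1.20 to 1.37), with the first 3 of these near or below 1. These genes chose the cells, so their levels are not free to vary. *Foxc2*, outside the rule, was at 0.98-fold (0.87 to 1.09), *Gata2* at 0.86-fold (0.76 to 0.97), *Itga9* at 0.98-fold (0.88 to 1.09), *Tie1* at 1.03-fold (0.97 to 1.11), and *Tek* at 0.75-fold (0.63 to 0.89). Of the valve markers outside the rule, *Adm* was 1.60-fold higher (1.52 to 1.68), and in other LECs 3.74-fold. *Slc41a1* was at 1.38-fold (1.32 to 1.44) and *Neo1* at 1.38-fold (1.28 to 1.50), and in other LECs at 1.41-fold and 3.32-fold. The higher levels of *Adm*, *Slc41a1*, and *Neo1* did not hold in every range of rule UMIs. At 40 or more, *Adm* was at 1269 CPM with IgG and 1145 CPM with Ang2 Ab. At 20 to 39, *Slc41a1* was at 1672 and 1199 CPM and *Neo1* at 447 and 323 CPM. At 5 to 9, *Slc41a1* was at 641 and 632 CPM. In its other ranges each gene was higher with Ang2 Ab. *Gjd3* was at 0.89-fold (0.60 to 1.31). *Nrp2* was at 0.61-fold, *Flt4* at 0.93-fold, and *Kdr* at 0.95-fold, none of which passed 2-fold.

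Over all valve barcodes, *Thbs1* and *Bmp6* had higher ratios than *Angpt2*. *Thbs1*, which encodes the matrix protein thrombospondin 1, went from 52.0 to 289 CPM (5.55-fold, 4.77 to 6.49), and in other LECs from 178 to 515 CPM (2.89-fold). *Bmp6*, a BMP ligand gene, went from 5.30 to 37.1 CPM (7.01-fold, 4.37 to 11.7), and in other LECs from 14.4 to 41.9 CPM (2.92-fold). Both were thus higher with Ang2 Ab in each kind of LEC, and both started from a lower level in valve barcodes. *Thbs1* UMIs came from few members, 49 of 296 and 48 of 207, and without the barcode of most UMIs in each library the ratio was 5.27. In barcodes with *Xist*, *Thbs1* was at 3.31-fold, below *Angpt2* at 4.28-fold, and *Bmp6* was at 5.03-fold. In those with Y-linked UMIs, *Thbs1* was at 5.06-fold and *Bmp6* at 22.1-fold, the last from 3 UMIs with IgG. *Ccn2* (3.91-fold), *F2rl1* (4.35-fold), a protease-activated receptor gene, *St8sia6* (3.38-fold), and *Fam180a* (3.05-fold) were also among the 10 highest, at 3.91-fold, 2.69-fold, 2.22-fold, and 2.02-fold in other LECs. *St8sia6* was past 2-fold in barcodes with Y-linked UMIs (5.71-fold) and not in those with *Xist* (1.79-fold), and *Ccn2* was at 3.63-fold and 2.33-fold in the same order. *Krt15*, *Krt5*, and *Lgals7*, which 1 barcode carried, made up the rest of the 10.

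*Lyve1* was higher with Ang2 Ab in valve barcodes, at 374 CPM with IgG and 924 CPM with Ang2 Ab (2.47-fold, 2.32 to 2.64), and in other LECs (1.66-fold). It was 1.42-fold in valve barcodes with *Xist* and 2.56-fold in those with Y-linked UMIs, so the value depended on which cells were read. Of the Ang2 Ab *Lyve1* UMIs, 570 of 2363 lay in the 18 of 207 valve barcodes that had both or neither. With IgG, 153 of 1551 lay in 41 of 296 such barcodes. The share of valve barcodes with a *Lyve1* UMI was 36.5% with IgG and 34.8% with Ang2 Ab. *Reln* was 1.51-fold and *Mmrn1* 1.31-fold higher.

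**Figure D4:**
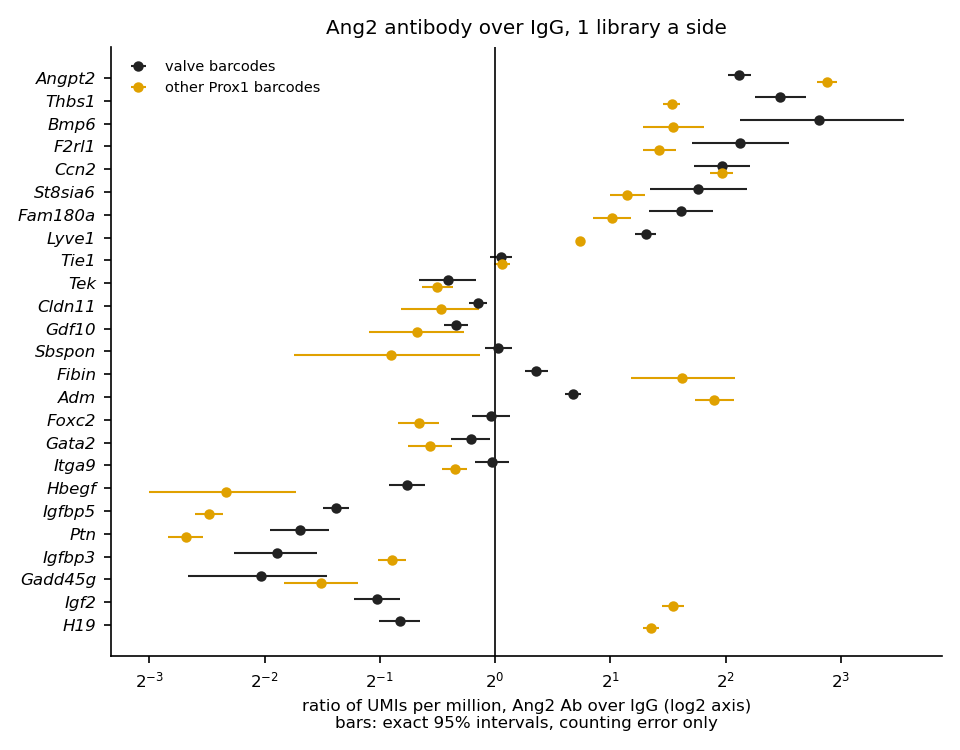
Ratio of CPM, Ang2 Ab over IgG, in valve barcodes (black) and other LECs (orange) on a log2 axis, with exact 95% intervals for counting error, from 1 library a side. *Angpt2* and *Thbs1* lie to the right in both kinds of LEC, *Foxc2*, *Itga9*, and *Tie1* of the valve barcodes near 1, and *Igf2* and *H19* on opposite sides in the 2 kinds.

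Lists showed few members past 2-fold between the antibodies in valve barcodes. *Bmp4* (2.62-fold) and *Bmp6* of 13 BMP and TGF-beta genes were higher, as was *Angpt2* of 4 angiopoietin and Tie genes, *Cd79a* (2.62-fold) of 1 immune gene with enough UMIs, and *Hspa1b* (2.45-fold) of 12 immediate early and stress genes. *Nrp1* (0.39-fold) of 15 guidance genes, *Flt1* (0.46-fold) and *Nrp1* of 6 VEGF genes, and *Rgs5* (0.44-fold), the only mural gene with enough UMIs, were lower. None of the 10 valve transcription factor genes passed 2-fold (median log2 ratio 0.02), nor did any of 13 matrix genes (0.00), 10 junction genes (-0.01), 6 Notch genes (-0.29), or 12 PI3K, Akt, and FoxO genes (-0.04). The median over all 7605 genes was -0.01.

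Some blood endothelial and cell cycle genes were lower with Ang2 Ab in valve barcodes. *Vwf* went from 29.4 to 7.43 CPM (0.25-fold), *Flt1* from 79.3 to 36.8 CPM, and *Rgcc* from 30.8 to 13.7 CPM (0.44-fold), which made 3 of 9 blood endothelial markers lower. *Vwf* was at 0.56-fold in barcodes with *Xist* (14 and 4 UMIs) and 0.35-fold in those with Y-linked UMIs (13 and 4). *Fabp4* went from 499 to 150 CPM (0.30-fold, 0.27 to 0.33) and *Ly6c1*, a gene of blood endothelium and blood cells, from 104 to 29.7 CPM (0.29-fold). One IgG barcode held 21.4% of the *Fabp4* and 26.4% of the *Ly6c1* UMIs, and without the barcode of most UMIs in each library the ratios were 0.28 and 0.27. In barcodes with *Xist* they were 0.22 and 0.26, but in those with Y-linked UMIs 1.08 and 3.31. Of the IgG UMIs, 27 of 122 of *Vwf*, 967 of 2073 of *Fabp4*, and 183 of 432 of *Ly6c1* lay in barcodes with *Xist* alone or Y-linked UMIs alone, and the rest in the 41 of 296 valve barcodes that had both or neither. *Pclaf*, a replication gene, was at 29.6 CPM in 7 valve barcodes of the IgG library, and 1 of them held 42.3% of its UMIs. *Top2a*, the only one of 6 proliferation markers with enough UMIs, was at 0.19-fold. *Hist1h2ap* was at 0.17-fold, with 60.7% of its IgG UMIs in 1 barcode, and at 0.39-fold without the barcode of most UMIs in each library, 0.82-fold in barcodes with *Xist*, and 0.10-fold in those with Y-linked UMIs. The part of blood endothelial or dividing cells in these differences was not tested.

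*Ptn*, *Igfbp5*, and *Gadd45g* were 2-fold or more lower with Ang2 Ab in both kinds of LEC, and *Igfbp3* in valve barcodes. *Ptn*, which encodes pleiotrophin, went from 194 to 59.8 CPM in valve barcodes (0.31-fold, 0.26 to 0.37) and from 345 to 53.6 CPM in other LECs (0.16-fold). A single Ang2 Ab valve barcode held 48.4% of its UMIs, and without the barcode of most UMIs in each library the valve ratio was 0.20. *Igfbp5* went from 825 to 317 CPM in valve barcodes (0.38-fold) and from 493 to 88.1 CPM in other LECs (0.18-fold). For *Igfbp5*, too, 1 Ang2 Ab valve barcode held 49.01% of the UMIs, and the valve ratio without those barcodes was 0.21, while it was 0.27 in barcodes with *Xist* and 0.62 in those with Y-linked UMIs. *Igfbp3* went from 112 to 30.1 CPM (0.27-fold) and *Gadd45g* from 44.8 to 10.9 CPM (0.24-fold). In other LECs *Igfbp3* was at 0.54-fold, short of 2-fold lower, and *Gadd45g* at 0.35-fold. *Igfbp3* was at 0.18-fold in valve barcodes with *Xist* and 0.45-fold in those with Y-linked UMIs. Of the 10 lowest genes, 10 were below 1 in barcodes with *Xist* and 8 in those with Y-linked UMIs.

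For *Krt15*, *Krt5*, and *Lgals7*, keratinocyte genes with the highest ratios (37.5, 28.4, and 13.9), a single valve barcode of the Ang2 Ab library held 99.5%, 96.2%, and 95.3% of the UMIs. Without the barcode of most UMIs in each library, the ratios were 0.20, 1.31, and 0.75, so the difference was that of 1 barcode.

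Members also fell into barcodes with and without *Irx3* or *Irx5*, a pair of homeobox genes that are neighbours on chromosome 8, and this split was noticed after the values were seen. In valve barcodes, *Irx3* was at 57.8 CPM with IgG and 86.4 CPM with Ang2 Ab, against 3.15 and 3.11 CPM in other LECs. UMIs of either gene were found in 73 of 296 valve barcodes with IgG (24.7%) and 56 of 207 with Ang2 Ab (27.1%), against 4.08% and 3.29% of other LECs. Across valve barcodes with at least 10 rule UMIs, which share 1 library and its range of depths, the log levels of *Irx3* and *Irx5* correlated with r = 0.78 with IgG (219 barcodes) and 0.76 with Ang2 Ab (166 barcodes). Barcodes with these genes were somewhat deeper (median 13512 against 11835 UMIs with IgG, and 12580 against 9841 with Ang2 Ab). The split was ranked in the IgG library and then read in the Ang2 Ab library.

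Barcodes with *Irx3* or *Irx5* had more RNA of *Kcnj2*, *Ednrb*, *Slc41a1*, *Neo1*, and *Ppargc1a* in both libraries. *Kcnj2*, a potassium channel gene, was at 100 CPM with and 2.63 CPM without them in the IgG library (38.1-fold), and at 156 and 3.83 CPM in the Ang2 Ab library (40.7-fold). *Ednrb*, an endothelin receptor gene, was at 410 and 39.1 CPM (10.5-fold) and at 699 and 70.6 CPM (9.89-fold). *Slc41a1* was at 3061 and 478 CPM (6.41-fold) and at 4238 and 561 CPM (7.56-fold). Most *Slc41a1* UMIs thus lay in a minority of members, with 3393 in the 73 IgG barcodes with these genes and 1454 in the 223 without, and 3099 and 1024 in the 56 and 151 Ang2 Ab barcodes. *Neo1* (5.12-fold and 4.79-fold) and *Ppargc1a*, a regulator of mitochondrial genes (15.8-fold and 6.68-fold), were also higher.

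Barcodes without *Irx3* or *Irx5* had more *Adm*, *Foxc2*, and *Fibin*. *Adm* was at 499 CPM with and 896 CPM without them in the IgG library (0.56-fold) and at 425 and 1595 CPM in the Ang2 Ab library (0.27-fold). *Foxc2* was at 121 and 225 CPM (0.54-fold) and at 84.8 and 235 CPM (0.36-fold). *Lfng*, which encodes a modifier of Notch receptors, was at 13.5 and 62.8 CPM (0.22-fold) and at 20.5 and 77.2 CPM (0.27-fold). *Adm* and *Foxc2* were therefore higher where *Slc41a1* and *Kcnj2* were lower. *Procr* (0.29-fold and 0.27-fold), *Tmem158* (0.28-fold and 0.032-fold), and *Lyve1* (0.43-fold and 0.34-fold) were lower with *Irx3* or *Irx5* as well. Of the rule genes, *Cldn11* (1.16-fold and 1.75-fold) and *Sbspon* (1.17-fold and 1.38-fold) were higher with these genes, and *Fibin* (0.55-fold and 0.44-fold) and *Gdf10* (0.67-fold and 0.89-fold) lower.

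In the IgG library, 89 of 5934 genes were 2-fold or more higher with *Irx3* or *Irx5* (1.50%) and 78 were 2-fold or more lower (1.31%). Of the 89, 60 had at least 100 UMIs in the Ang2 Ab library and 36 of them were 2-fold or more higher there, where 68 of 4282 genes were (1.59%). Of the 78, 49 had that many UMIs and 27 were 2-fold or more lower, against 148 of 4282 genes (3.46%). Blood endothelial genes did not carry over, since *Rgcc* was 13.2-fold, *Ly6c1* 7.84-fold, and *Fabp4* 5.38-fold higher with IgG and at 0.23-fold, 0.72-fold, and 0.46-fold with Ang2 Ab.

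On the control plates, 43 of 123, 8 of 74, 15 of 77, and 37 of 112 valve wells had reads of *Irx3* or *Irx5*. Median detected genes in wells with and without these reads were 7361 and 6297, 4031 and 4363.5, 4444 and 4876.5, and 6751 and 6155. *Ednrb* was higher in wells with these reads by 2.44, 3.22, 2.31, and 1.13 on the log2 scale, and *Slc41a1* by 1.66, 2.97, 1.74, and 1.09. *Neo1* and *Ppargc1a* were also higher on all 4 plates. No minimum level was set for this split of wells. On the second Tie1fl/fl plate, *Ppargc1a* was at 2.37 CPM in 8 wells with and 0.04 CPM in 66 wells without *Irx3* or *Irx5*. *Lfng* was lower on each, at -0.27, -2.66, -3.80, and -0.94, and so was *Lyve1*, at -0.07, -0.64, -0.85, and -0.39. *Adm* was at 0.70, -7.14, 0.04, and -0.78, and *Foxc2* and *Fibin* also had both signs, so these differences in the droplets were not shared by every plate. *Kcnj2* had both signs too, but it was below the plate minimum of 10 CPM and too low to be read.

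**Figure D5:**
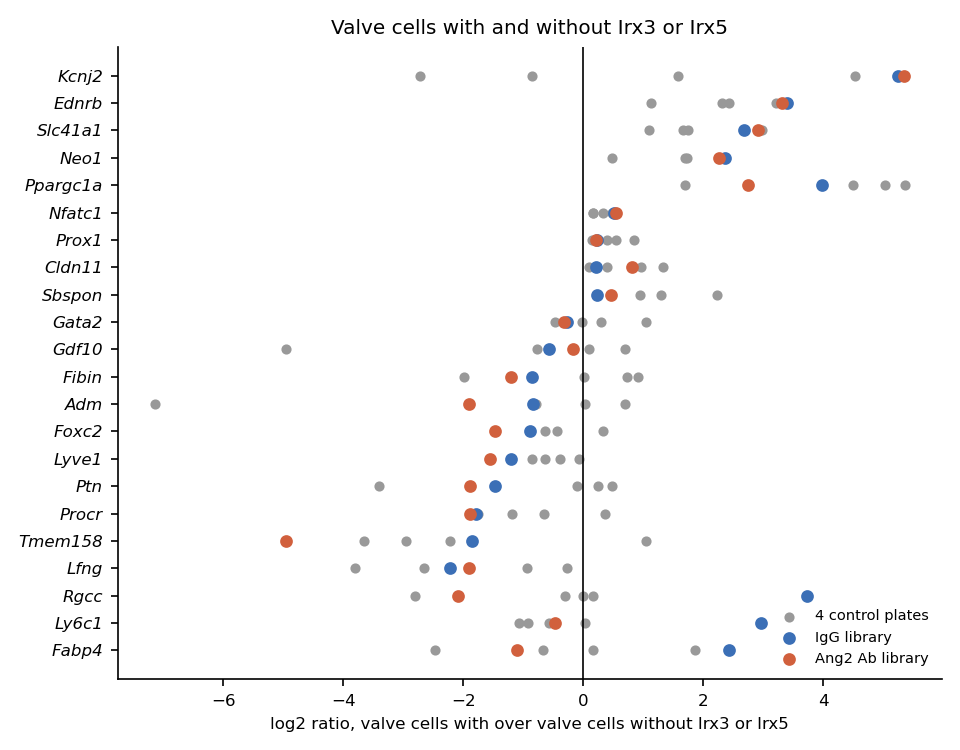
Log2 ratio of valve barcodes or wells with UMIs or reads of *Irx3* or *Irx5* over those without, in the IgG library (blue), the Ang2 Ab library (red), and each of the 4 control plates (grey). *Ednrb*, *Slc41a1*, *Neo1*, and *Ppargc1a* lie right of 0 in all 6, *Lfng* and *Lyve1* left of 0 in all 6, and *Rgcc*, *Ly6c1*, and *Fabp4* right of 0 with IgG and left of 0 with Ang2 Ab.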

How the data were processed

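Single-cell RNA-Seq of ear skin endothelium was analysed from 2 droplet libraries (IgG and Ang2 Ab, 1 each) and 4 Smart-seq plates of control LECs. The authors deposited UMI counts per gene and barcode from Cell Ranger (6.0.2 per the file headers, whereas the submitters' notes list 2.1.1) and, for the plates, read counts per gene and well after removal of duplicate reads, without normalization. The notes also list TopHat2 2.1.1, SAMtools 0.1.18, featureCounts, R 3.5.1, Seurat 4.0 and 4.0.6, and GRCm38. The plates of deleted mice were not used, and some genes are not reported here. Deposited counts were summed over the barcodes of a class and library and divided by the summed total (CPM). Ratios carry exact conditional 95% binomial intervals, and a class with 0 UMIs was given a floor of 3 UMIs. A gene was counted as higher or lower at a ratio of 2 or 0.5. No test across libraries was possible with 1 library per condition, and the single UMIs of a droplet are not replicates. Plate genes were matched to the droplet genes by symbol, identifier, or older symbol (27473 or 28286 per plate), plate values are means of CPM over wells with a pseudocount of 1, and genes needed 10 CPM on average over the plates in the higher of the 2 classes.

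The rule, the gene lists, and the comparisons were chosen with earlier results of these data known. Named genes are the rule genes and *Adm*, the genes the study names as results, the 15 highest and 10 lowest of valve over other LECs by the less extreme library, the 10 highest and 10 lowest of Ang2 Ab over IgG and the 5 highest and 5 lowest ratios of ratios by the interval bound nearest 1, and of each of 27 lists the members past 2-fold and its 4 most abundant. *Xist*, Y-linked, mitochondrial, ribosomal protein, and rule genes were not ranked. *Cd68*, *Celsr1*, *Ednrb*, *Unc5b*, and other genes named beside these were chosen after their values were seen, as was the split by *Irx3* and *Irx5*. Promoter windows came from RefSeq (GRCm38.p6). Alternatives were other minimums for the rule genes, *Prox1*, detected genes, and mitochondrial UMIs, thinning to 5000 UMIs, deep or mixed barcodes left out, barcodes of 1 sex, other scalings, and each plate left out in turn. Leaving out barcodes with UMIs of both sexes, or the barcode that holds most UMIs of a gene, was added after the data were seen. The intervals were tested on simulated counts. Tools were Python 3.11.15, numpy 2.4.6, pandas 2.3.3, scipy 1.17.1, and matplotlib 3.10.9.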

Additional observations from a re-analysis of the deposited data

Results flagged for a closer look

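*Xist* UMIs were found in 60.5% of IgG and 47.3% of Ang2 Ab valve barcodes, including those that also had Y-linked UMIs. Both libraries are labelled male, and *Xist* is outside the main measurement. The number and sex of the pups behind each library were not given in the sources used here beyond that label.

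Among the genes the study names and those ranked highest or lowest by the antibody ratio or by the ratio of ratios, 6 had an Ang2 Ab over IgG interval on one side of 1 in valve barcodes and on the other side in other LECs, and the difference between the kinds of LEC was not tested. *Igf2* was at 0.49-fold in valve barcodes and 2.91-fold in other LECs, and *H19*, which is expressed from the same imprinted region, at 0.56-fold and 2.55-fold. *Depp1* was at 0.42-fold and 1.75-fold. A single IgG valve barcode held 36.0% of the *Igf2* UMIs, and without the barcode of most UMIs in each library *Igf2* was at 0.66-fold. *Ifi27l2a* was at 2.98-fold in valve barcodes and 0.64-fold in other LECs, with 50.3% of its Ang2 Ab UMIs in 1 valve barcode. Without the barcode of most UMIs in each library its valve ratio was 1.94, and it was 0.49 in barcodes with *Xist* and 4.70 in those with Y-linked UMIs, so with *Xist* it lay below 1 as in other LECs. *Krt15* was at 37.5-fold and 0.037-fold and *Krt5* at 28.4-fold and 0.087-fold, and these are the genes that 1 Ang2 Ab valve barcode carried.

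*Lsr* and *Lgals7* were the other genes with the highest ratio of ratios, at 1.36-fold and 13.9-fold in valve barcodes and 0.29-fold and 0.91-fold in other LECs. Without the barcode of most UMIs in each library the valve ratios turned to 0.92 and 0.75.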

How the results depend on the processing

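With 1 library a condition, no alternative bears on the spread between pups, and depth limits genes under about 100 UMIs. No paired analysis was possible because each antibody condition has 1 library. Of 124 values that answer a comparison, 97 stayed within their interval or within 1.5 times under the alternatives, and of 2114 values of 74 named genes 1609 stayed, 489 moved, and 16 changed direction. The causes were not tested.

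The share of valve barcodes with IgG was 30.0% at a rule minimum of 3 UMIs, 17.2% at 10, 20.7% with *Prox1* at 1 or more, 18.6% at a 5% mitochondrial limit, and 19.1% after thinning to 5000 UMIs. With Ang2 Ab it was 34.3%, 22.9%, 24.3%, 24.9%, and 25.0% in the same order, and 32.1% in *Xist* barcodes. Genes higher in valve barcodes in both libraries numbered 197 in *Xist* and 198 in Y-linked barcodes, in place of 298. Genes higher with Ang2 Ab in valve barcodes numbered 19 after thinning, 24 in *Xist* barcodes, 77 with a minimum of 50 UMIs, and 21 with 200, in place of 38. Genes lower numbered 22 with the rule scaled to 5 UMIs per 10000, 86 with *Prox1* at 1 or more, 8 after thinning, 14 in Y-linked barcodes, 35 without barcodes that had UMIs of both sexes, 107 with a minimum of 50 UMIs, and 25 with 200, in place of 49. The *Angpt2* ratio was 3.78 at a rule minimum of 10, 3.67 with the scaled rule, 5.00 at the 5% mitochondrial limit, and 3.66 after thinning, in place of 4.34. Of the 233 genes higher in the droplets and measured on the plates, 158 were higher on all 4 control plates. With 1 plate left out, 164 to 177 of 226 to 231 were higher on the other 3, and with a rule of 200 CPM 137 of 226 on all 4.

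The 16 changes of direction between the antibodies were in genes whose main interval lay on one side of 1. They were those of *Krt15* (0.17 with the scaled rule, 0.18 without the deepest 5% of barcodes, 0.22 without barcodes with other cell type markers, 0.69 after thinning, at most 0.84 in Y-linked barcodes with Ang2 Ab at 0 UMIs, 0.20 without the barcode of most UMIs), *Krt5* (0.34 at the 5% mitochondrial limit), and *Lgals7* (0.76 with the scaled rule, 0.60 at the 5% mitochondrial limit, 0.64 without the deepest 5%, 0.56 without other markers, 0.75 without the barcode of most UMIs). Others were *Hist1h2ap* with the scaled rule (1.26), *Ifi27l2a* in *Xist* barcodes (0.49), and, in Y-linked barcodes, *Fabp4* (1.08) and *Ly6c1* (3.31). Genes whose main interval held 1 are not among these and could cross 1 too. Examples are *Lsr* (1.36, and 0.92 without the barcode of most UMIs) and *Cilp2* (0.93, and 2.65 in Y-linked barcodes).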
